A study of Mus musculus with 12 samples.

Results

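Plasma carrier proteins are made by the liver and move fatty acids, hormones, vitamins and minerals through the blood. The 8 genes described here were chosen by name from a table of mouse liver with 13267 rows, each labelled by a transcript ID. They are albumin (Alb), afamin (Afm), vitamin D-binding protein (Gc), corticosteroid-binding globulin (Serpina6), transthyretin (Ttr), retinol-binding protein 4 (Rbp4), fetuin-A (Ahsg) and fetuin-B (Fetub). All 8 were present and all 8 passed the filter on low values. The livers came from C57BL/6 mice in which a high-fat diet had brought on obesity and hepatic steatosis. For 6 weeks, 6 mice then carried a subcutaneous pellet of 4-hydroxyphenylacetic acid (4-HPAA), a microbial breakdown product of polyphenols. The 6 controls shared strain and diet and carried the scaffold without the compound. Sex and age were not stated. Because no label says more about where the replicates came from, the p-values cover variation among these 12 libraries and nothing wider. The comparison of 4-HPAA with control asks how liver transcripts differ with the compound once steatosis is established.

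Hepatocytes make these proteins with a signal peptide and release them through the endoplasmic reticulum and Golgi into the blood. Albumin is the most abundant plasma protein and binds fatty acids, bilirubin and many drugs. Alb, Afm and Gc belong to the same gene family and lie near each other on mouse chromosome 5. Transthyretin carries thyroxine and also holds Rbp4 with its retinol, which keeps that small protein from being lost through the kidney. Ahsg and Fetub are neighbours on chromosome 16 and belong to the cystatin superfamily. Serpina6 is a serpin that carries glucocorticoids and does not act as a protease inhibitor. Albumin and transthyretin are among the textbook negative acute phase proteins, whose synthesis is lowered in inflammation. In GENCODE M21 (GRCm38), Alb lies at chr5:90460897-90476602, Afm at chr5:90518932-90553543, Gc at chr5:89417522-89457898, Serpina6 at chr12:103646630-103657212, Rbp4 at chr19:38116629-38125281, Ahsg at chr16:22891277-22899449 and Fetub at chr16:22918334-22939778.

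The promoters of Alb, Afm and Gc are shown because these genes share a family and a chromosome but not their differences between the groups of livers. Alb and Afm were lower in 4-HPAA livers before adjustment, and Gc lay close to control levels. The sequences are from RefSeq on GRCm38.p6. For 6 of the 8 genes, 8 windows were used, 2 each for Fetub and Rbp4. Ttr and Serpina6 were not searched, so nothing is said about their promoters. Each window is the 250 bases before a start of transcription in RefSeq, on the strand of the gene. The RefSeq starts of Alb and Afm differ from the GENCODE starts above. The Alb window ends at 90460869, before the GENCODE start at 90460897, and the bases between were not searched for any motif. The Afm window ends at 90518948, past the GENCODE start at 90518932. The Ahsg window searched, chr16:22891765-22892014, lies inside the GENCODE span of the gene, as do window 2 of Fetub and window 2 of Rbp4. Capitals mark GTTAAT on either strand. Alb lies on the plus strand (chr5:90460620-90460869), Afm on the plus strand (chr5:90518699-90518948) and Gc on the minus strand (chr5:89457899-89458148).
Alb: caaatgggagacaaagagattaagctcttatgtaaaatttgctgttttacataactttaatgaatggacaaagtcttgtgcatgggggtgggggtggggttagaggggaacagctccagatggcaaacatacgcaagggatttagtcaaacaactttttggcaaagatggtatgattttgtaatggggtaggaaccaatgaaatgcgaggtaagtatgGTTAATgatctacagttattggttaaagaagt
Afm: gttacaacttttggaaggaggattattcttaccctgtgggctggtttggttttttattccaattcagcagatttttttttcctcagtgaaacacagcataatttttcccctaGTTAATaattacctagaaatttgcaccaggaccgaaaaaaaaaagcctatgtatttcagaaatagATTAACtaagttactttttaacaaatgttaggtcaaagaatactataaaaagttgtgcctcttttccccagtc
Gc: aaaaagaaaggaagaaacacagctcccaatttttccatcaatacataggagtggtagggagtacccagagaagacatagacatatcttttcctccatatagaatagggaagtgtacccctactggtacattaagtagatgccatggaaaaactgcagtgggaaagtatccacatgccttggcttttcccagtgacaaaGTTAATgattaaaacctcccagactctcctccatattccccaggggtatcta
Counted back from the RefSeq start, GTTAAT lay at bases −32 to −27 in Alb and at −52 to −47 in Gc. Afm held it at −138 to −133 and, on the opposite strand, at −73 to −68. It was found in 3 of 8 windows, those of the albumin family, against 6.43% of 32851 promoter windows of the same length. The windows of Ahsg, Fetub and Rbp4 did not hold these letters. TATAAA, the core promoter element, occurred in 3 of 8 windows, 1 each of Afm, Fetub and Rbp4, against 12.4% of all windows. On both strands, CCAAT occurred in 5 of 8 windows (33.8% of all windows) and GCAAT, letters of C/EBP sites, in 2 (23.1%). CAAAGT, letters of HNF4 sites, occurred in 4 (12.6%), and in Gc it overlapped the letters in capitals. The FOXA core, TGTTTAC, occurred in 2 (3.17%) and TTCNNNGAA, a STAT site, in 0 (7.02%). These matches describe letters, and no binding was measured.

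The deposited values are normalised read counts, which summed to between 22869813 and 25255447 per library, and counts below are these values. Reads per library, estimated from the spacing of low values, were between 22388924 and 25918875 in 4-HPAA and between 24447273 and 26929205 in control libraries. Over the 12720 genes tested, 4-HPAA replicate 3 stood apart on the second principal component, at −56.45, while the other 11 libraries lay between −7.52 and 17.03. The summed values of 13 hepatocyte markers other than carriers were 1030652 to 1141343 in 4-HPAA and 871996 to 1164119 in control libraries. Stellate cell and fibroblast markers summed to 4220 to 8162 in 4-HPAA and 6732 to 10355 in control libraries. Of these 11, 7 were lower at an unadjusted p under 0.05 in limma, against 7.56% of all genes. Macrophage markers summed to 3950 to 6993 in 4-HPAA and 2955 to 9950 in control libraries, and endothelial markers to 5693 to 7747 in 4-HPAA and 6150 to 7556 in control libraries. Of 7 adipocyte markers 3 were in the table, with sums of 283 to 916 in 4-HPAA and 630 to 3218 in control libraries, and Adipoq and Plin1 were not in it. At the same threshold, 3 of 12 macrophage, 2 of 10 endothelial and 3 of 3 adipocyte markers were lower and 0 were higher. Of the 13 hepatocyte markers, 2 were higher and 1 was lower, against 7.26% of all genes higher. What part these shifts have in the results was not tested. In bulk tissue, fewer cells of a type and less RNA per cell cannot be told apart.

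In 4-HPAA livers, albumin, corticosteroid-binding globulin and afamin transcripts were lower and fetuin-A transcripts higher than in controls before adjustment, while Gc and Rbp4 lay close to control levels. None of the 8 genes passed an adjusted p of 0.05 in limma (Benjamini-Hochberg over all genes tested), a threshold that 0.0% of all genes passed. At an unadjusted p under 0.05 in limma, 3 of the 8 were lower, against 7.56% of all genes, and 1 was higher, against 7.26%. In none of the 8 did the groups separate fully, against 0.354% of all genes with 4-HPAA below every control and 0.307% above. The median log2 difference, 4-HPAA minus control throughout, was −0.105 over the 8 genes, with 3 positive and 5 negative, and −0.001 over all genes tested.

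**Figure D1:**
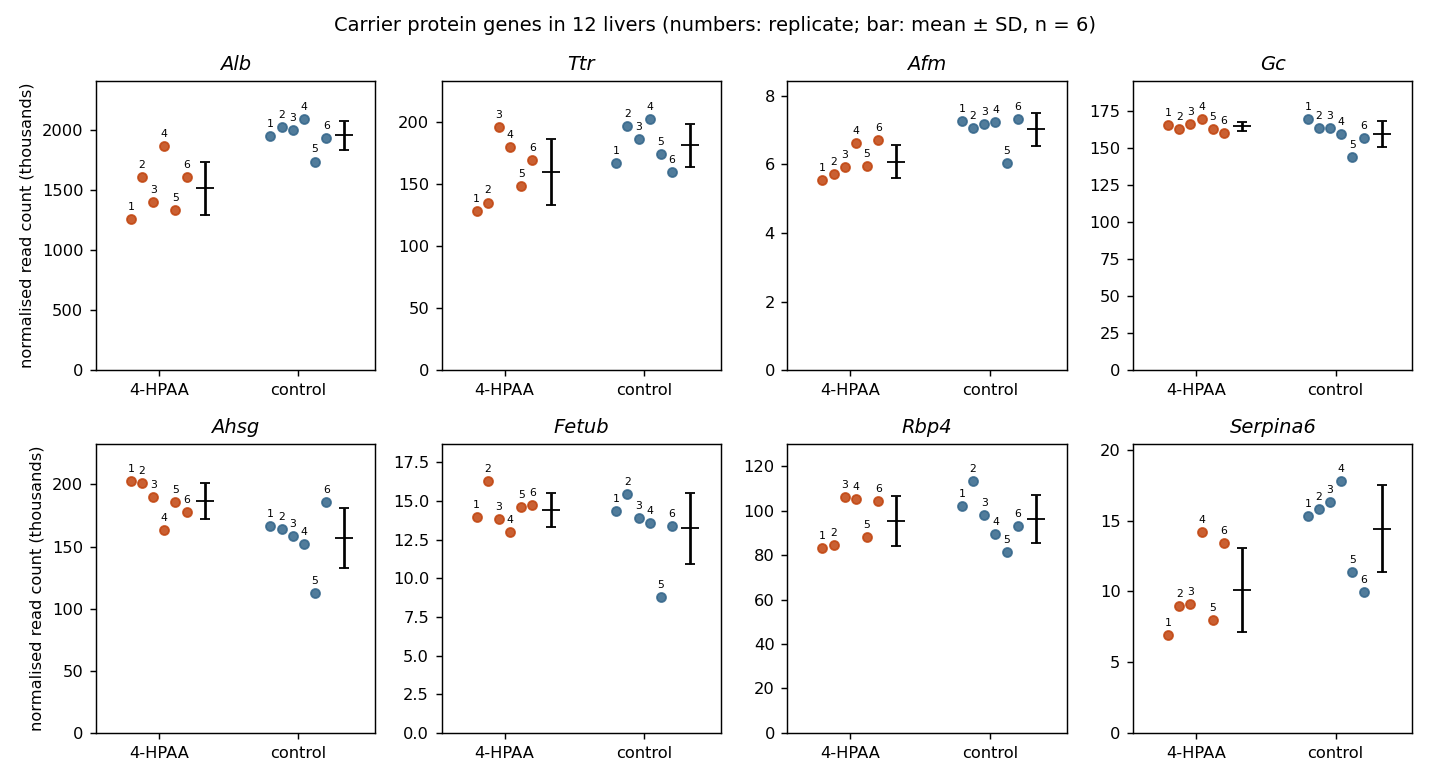
Normalised read counts (linear axes from 0, in units of 1000) of the 8 carrier genes in each liver, 4-HPAA left and control right, numbered by replicate, with the mean ± SD (n = 6 each). All 6 4-HPAA livers lie below the control mean in Alb, Afm and Serpina6 and above it in Gc and Ahsg, and the groups overlap in all 8 genes.

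Albumin, the main carrier of fatty acids in plasma, had normalised read counts of 1258013, 1606988, 1402760, 1866030, 1332962 and 1602769 in 4-HPAA livers 1 to 6, against 1948002, 2023820, 1995178, 2091337, 1735801 and 1932827 in control livers 1 to 6. Thus 5 of 6 4-HPAA livers lay below every control, and 4-HPAA replicate 4 lay inside the control range. The means were 1511587 ± 224096 in 4-HPAA and 1954494 ± 121265 in control livers (SD, n = 6 each), a fold of 0.768. The log2 difference was −0.38 ± 0.10 (SE, limma, unadjusted p = 0.00156, adjusted p = 0.148), with a 95% interval of −0.59 to −0.17. Without 4-HPAA replicate 4 the difference was −0.445 and passed (limma, adjusted p = 0.03105), and it did not pass with any other library left out. With that replicate left out, 193 of all genes tested passed, albumin among them, against 0 as reported. It was −0.36 when 4-HPAA replicate 3 was left out. The 4-HPAA livers with the fewest estimated reads, replicates 1, 2 and 5, were among the 5 lowest in albumin, as was replicate 3, which had the most reads of its group. The part of depth in this difference was not tested.

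Afamin, the vitamin E-binding member of the family, had the same direction at a far lower level. An annotated gene, Gm42109, overlaps Afm on the other strand, and the sources do not say whether counting used strand. Its counts were 5547, 5716, 5920, 6625, 5955 and 6700 in 4-HPAA livers, against 7271, 7060, 7175, 7220, 6050 and 7328 in control livers. Below every control lay 4 of 6 4-HPAA livers, and the overlap came from 4-HPAA replicates 4 and 6 and control replicate 5. The log2 difference was −0.21 ± 0.07 (limma, unadjusted p = 0.0135, adjusted p = 0.223).

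Gc, which carries vitamin D metabolites and scavenges actin, did not share this direction. It had 165471, 162978, 165960, 169679, 162952 and 160033 counts in 4-HPAA livers and 169304, 163293, 163451, 159488, 143944 and 156393 in control livers, and the groups overlapped. The log2 difference was 0.05 ± 0.06, with a 95% interval of −0.09 to 0.18 (limma, unadjusted p = 0.455, adjusted p = 0.767), and it was −0.012 with libraries scaled to their total without Alb and 0.019 without control replicate 5. Gc had the smallest coefficient of variation of the 8 genes, 2.01% in 4-HPAA and 5.45% in control livers. The fetal family member Afp averaged 72.0 ± 9.88 counts in 4-HPAA and 67.5 ± 7.50 in control livers, a log2 difference of 0.09 ± 0.13 (limma, adjusted p = 0.8). In this family of 4 tested genes, 2 were lower, Alb and Afm themselves, and 0 higher at an unadjusted p under 0.05 in limma. Of all genes, 7.56% were lower and 7.26% higher at that threshold.

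Corticosteroid-binding globulin, the plasma carrier of corticosterone, had the largest log2 difference of the 8 genes and the widest spread. Serpina6 counts were 6943, 8998, 9128, 14217, 7989 and 13392 in 4-HPAA livers, against 15303, 15812, 16347, 17768, 11339 and 9970 in control livers. 4-HPAA replicates 1, 2, 3 and 5 lay below every control, and replicates 4 and 6 lay within the control range. The log2 difference was −0.53 ± 0.19 (limma, unadjusted p = 0.0145, adjusted p = 0.229). Of 16 tested genes of glucocorticoid handling, 1 was higher and 0 lower at an unadjusted p under 0.05 in limma. Of all genes, 7.26% were higher and 7.56% lower at that threshold. After adjustment, 0 of the 16 passed. The higher gene was the steroid 5-alpha-reductase Srd5a1, at 0.54 ± 0.10 (limma, adjusted p = 0.103). Mt2 and Dusp1, which respond to glucocorticoids, were at 1.32 ± 0.64 and 0.42 ± 0.25, and H6pd, which supplies NADPH to the enzyme that regenerates corticosterone, at 0.15 ± 0.09 (limma, adjusted p = 0.359, 0.459 and 0.474). Over the list, 9 differences were positive and 7 negative. Fkbp5, Sgk1 and Zbtb16, of the same list, were at −0.278 ± 0.265, −0.208 ± 0.2 and −0.233 ± 0.741 (limma, adjusted p = 0.667, 0.671 and 0.915). Tat, Tsc22d3 and Per1, also of this list, were at 0.167 ± 0.291, 0.123 ± 0.33 and 0.078 ± 0.168 (limma, adjusted p = 0.835, 0.897 and 0.867).

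Transthyretin and Rbp4, partners in retinol transport, did not pass the test in either direction as reported, though Ttr did so before adjustment under 3 alternatives. Ttr had 127975, 134977, 195739, 179911, 148229 and 169207 counts in 4-HPAA livers, against 167153, 196831, 186109, 202397, 174043 and 159224 in control livers. 4-HPAA replicates 1, 2 and 5 lay below every control, whereas 4-HPAA replicate 3, the library that stood apart, exceeded 4 of 6 controls. The log2 difference was −0.20 ± 0.11 (limma, unadjusted p = 0.0974, adjusted p = 0.428), and −0.26 without 4-HPAA replicate 3 (limma, unadjusted p = 0.0278, adjusted p = 0.2055). It was −0.295 with array weights and −0.255 with the total without Alb (limma, unadjusted p = 0.00839 and 0.0458, adjusted p = 0.09586 and 0.326), and 4 of the 8 carriers were then lower before adjustment. Rbp4 had 83138, 84460, 106232, 105395, 88189 and 104481 counts in 4-HPAA livers and 102321, 113239, 98204, 89784, 81273 and 93199 in control livers. All 4-HPAA values lay inside the control range, with replicates 1, 2 and 5 below replicates 3, 4 and 6. The log2 difference was −0.02 ± 0.10, with a 95% interval of −0.23 to 0.19 (limma, unadjusted p = 0.873, adjusted p = 0.956), and its sign changed when any of 5 libraries was left out.

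Genes of retinoid and thyroid hormone handling lay on both sides. Of 14 tested retinoid genes, 1 was higher and 2 were lower at an unadjusted p under 0.05 in limma, and 0 passed after adjustment. Of all genes, 7.26% were higher and 7.56% lower at that unadjusted threshold. Stra6l, a receptor for Rbp4 in mouse liver, averaged 3626 ± 588 counts in 4-HPAA and 2961 ± 289.7 in control livers, a log2 difference of 0.28 ± 0.11 (limma, adjusted p = 0.239). The retinal reductase Rdh11 was at −0.74 ± 0.23 and Pnpla3, a lipase that also acts on retinyl esters, at −1.08 ± 0.44 (limma, adjusted p = 0.197 and 0.277). Pnpla3 averaged only 13 counts in 4-HPAA and 30.3 in control livers. Aldh1a3, a retinaldehyde dehydrogenase, was at −0.48 ± 0.23 (limma, adjusted p = 0.342), with only 12.7 counts in 4-HPAA and 17.7 in control livers. Of 11 tested thyroid hormone genes, 1 was higher and 2 were lower at an unadjusted p under 0.05 in limma. The same shares of all genes stand beside these counts, and 0 of the 11 passed after adjustment. Thyroxine-binding globulin, Serpina7, which carries the same hormone as transthyretin, averaged 1599 ± 603 counts in 4-HPAA and 2749 ± 398 in control livers, a log2 difference of −0.85 ± 0.20 (limma, adjusted p = 0.142). Dio1, a deiodinase that activates thyroxine, was at 0.49 ± 0.13, the malic enzyme gene Me1 at −0.67 ± 0.23 and the thyroid hormone-binding Crym at −0.25 ± 0.14 (limma, adjusted p = 0.152, 0.216 and 0.42).

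The fetuins lay on the higher side. Ahsg is overlapped on the other strand by Gm30505, so the same limit on strand holds for it. Fetuin-A, which keeps calcium phosphate from precipitating, had 202451, 201069, 190196, 163548, 185674 and 177936 counts in 4-HPAA livers, against 166627, 164260, 158232, 152257, 112915 and 186157 in control livers. All 6 4-HPAA values lay above the control mean and 3 above every control. The Ahsg log2 difference was 0.27 ± 0.11 (limma, unadjusted p = 0.0271, adjusted p = 0.273). It was 0.17 without control replicate 5, the lowest of the 12 livers, and its unadjusted p exceeded 0.05 without 4-HPAA replicate 1 or 2 (limma, unadjusted p = 0.0552 and 0.0549). Fetuin-B, an inhibitor of the egg protease ovastacin, had 13965, 16253, 13796, 12984, 14624 and 14720 counts in 4-HPAA livers and 14334, 15429, 13864, 13584, 8796 and 13370 in control livers. Apart from control replicate 5, all controls lay within the range of 4-HPAA livers. The Fetub log2 difference was 0.14 ± 0.12 (limma, unadjusted p = 0.255, adjusted p = 0.619), and 0.026 without control replicate 5. Hrg, a heme- and heparin-binding relative, was at 0.27 ± 0.10, and the kininogen genes Kng1 and Kng2 were at 0.06 ± 0.09 and −0.03 ± 0.08 (limma, adjusted p = 0.247, 0.822 and 0.878). In this family of 5 tested genes, 2 were higher, Ahsg itself and Hrg, and 0 lower at an unadjusted p under 0.05 in limma. Of all genes, 7.26% were higher and 7.56% lower at that threshold.

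**Figure D2:**
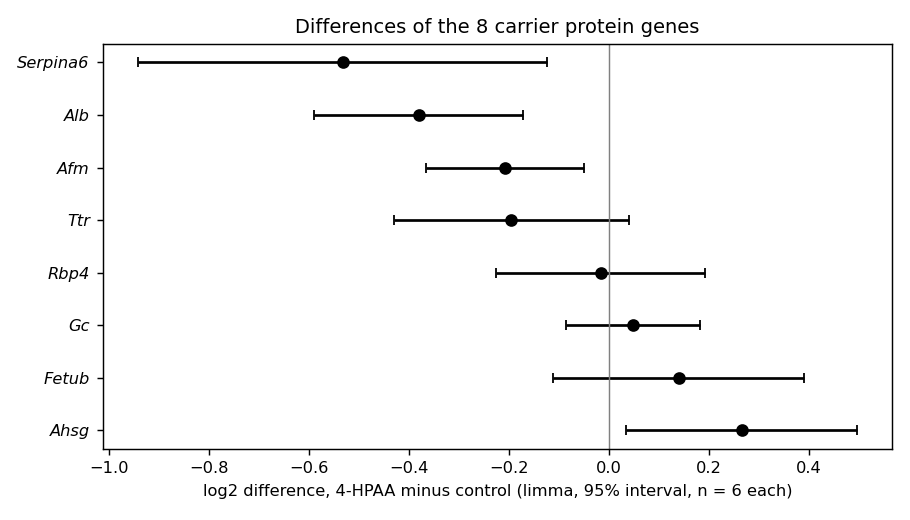
Log2 differences (4-HPAA minus control, horizontal axis) of the 8 carrier genes with 95% intervals from limma, n = 6 each. The intervals of Serpina6, Alb and Afm lie below 0 and that of Ahsg above it, before adjustment over all genes, and the other 4 include 0.

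Read as a share of the library total, albumin held 4.98, 6.38, 5.7, 7.58, 5.3 and 6.49% in 4-HPAA livers, against 7.71, 8.03, 8.07, 8.72, 7.59 and 7.91% in control livers. The groups did not overlap on this scale, with 4-HPAA replicate 4 just under control replicate 5, and the same was seen for 0.432% of all genes. The mean share was 6.07 ± 0.945% in 4-HPAA and 8.01 ± 0.397% in control livers, a difference of −1.93 percentage points (exact permutation test over the 12 livers, two-sided, p = 0.00216, the smallest this design allows). With the 20 highest genes left out of the denominator, the difference was −2.66 percentage points (exact permutation test, p = 0.00433). As this p is above the smallest possible, the groups overlapped on that scale. At an exact permutation p under 0.05, 8.29% of all genes had a lower share and 5.33% a higher one. The Afm share was 0.0244 ± 0.00216% in 4-HPAA and 0.0287 ± 0.00136% in control livers, and the Serpina6 share was 0.0407 ± 0.0124% in 4-HPAA and 0.059 ± 0.012% in control livers (exact permutation test, p = 0.00649 and 0.0281). The Serpina6 call was lost when any of 6 libraries was left out (exact permutation test, p = 0.0563 at most). The Ahsg share was 0.749 ± 0.0526% in 4-HPAA and 0.64 ± 0.0857% in control livers (exact permutation test, p = 0.0216), and no carrier had every 4-HPAA share above every control, against 0.22% of all genes. The shares of Ttr, Gc, Rbp4 and Fetub did not pass (exact permutation test, p = 0.104, 0.418, 0.675 and 0.39). These 8 p-values were not adjusted. Ttr averaged 0.641 ± 0.115% in 4-HPAA and 0.742 ± 0.0736% in control livers, Gc 0.66 ± 0.0176% in 4-HPAA and 0.652 ± 0.0159% in control livers, Rbp4 0.383 ± 0.0495% in 4-HPAA and 0.394 ± 0.0323% in control livers, and Fetub 0.0577 ± 0.00409% in 4-HPAA and 0.054 ± 0.00791% in control livers. The Fetub share difference was 0.00377 percentage points, and 0.000664 without control replicate 5. That of Gc was 0.00818, and 0.00239 when 4-HPAA replicate 4 was left out.

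Summed, the 8 genes held 8.63 ± 1.02% in 4-HPAA and 10.6 ± 0.495% in control livers, a difference of −1.95 percentage points. The 7 genes other than albumin held 2.56 ± 0.155% in 4-HPAA and 2.57 ± 0.121% in control livers, a difference of −0.0134 percentage points.

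**Figure D3:**
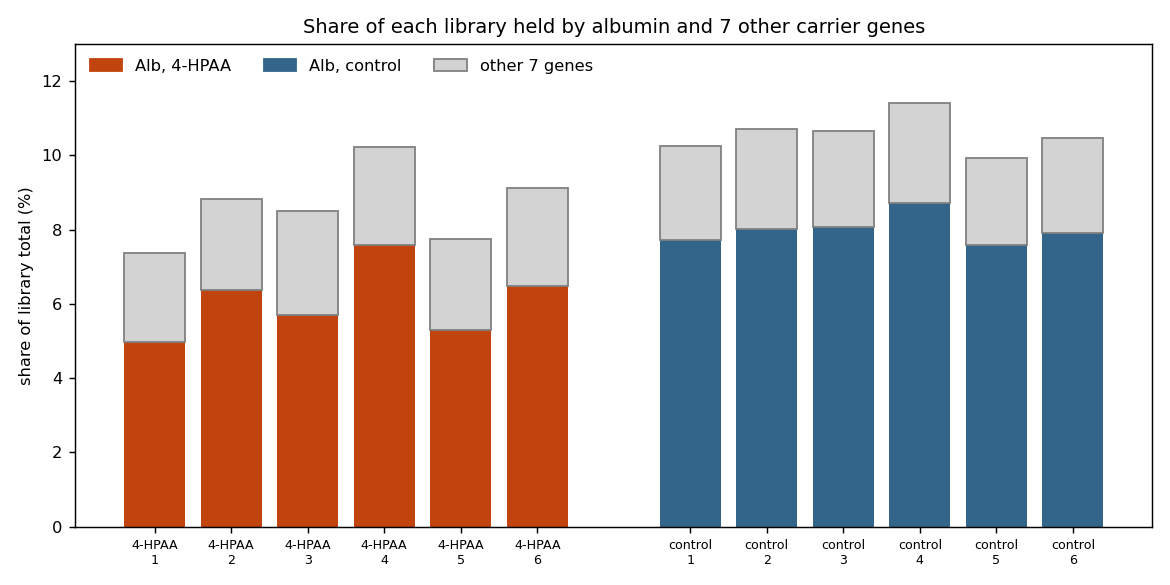
Share of the library total (%) held by Alb (coloured) and by the other 7 carrier genes summed (grey) in each liver, 4-HPAA left and control right. Alb spans 4.98 to 7.58% in 4-HPAA and 7.59 to 8.72% in control livers, while the other 7 together span 2.4 to 2.79% in 4-HPAA and 2.35 to 2.68% in control livers.

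Ratios to albumin within a library do not depend on how libraries were scaled. At an exact permutation p under 0.05, 5 of the other 7 carriers were higher relative to albumin, against 55.5% of all genes, and 0 were lower, against 0.566%. Most genes thus shared this direction. As a percentage of albumin, Gc amounted to 11.1 ± 1.56% in 4-HPAA and 8.16 ± 0.346% in control livers, with no overlap between the groups, as for 5.85% of all genes above and 0.00786% below. Its log2 ratio differed by 0.43 ± 0.09 (exact permutation test, p = 0.00216). Ahsg amounted to 12.7 ± 2.52% in 4-HPAA and 8.0 ± 1.07% in control livers, the largest shift at 0.65 ± 0.15 (exact permutation test, p = 0.00433). The log2 ratios of Rbp4, Fetub and Afm differed by 0.37 ± 0.09, 0.52 ± 0.13 and 0.17 ± 0.07 (exact permutation test, p = 0.00433, 0.00649 and 0.0346), and the Afm call was lost when any of 8 libraries was left out (exact permutation test, p = 0.0693 at most). Ttr amounted to 10.6 ± 1.87% in 4-HPAA and 9.26 ± 0.706% in control livers and did not pass (0.19 ± 0.11, exact permutation test, p = 0.115). Serpina6 had a negative difference, at 0.66 ± 0.115% in 4-HPAA and 0.734 ± 0.126% in control livers, and did not pass (−0.15 ± 0.15, exact permutation test, p = 0.325).

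**Figure D4:**
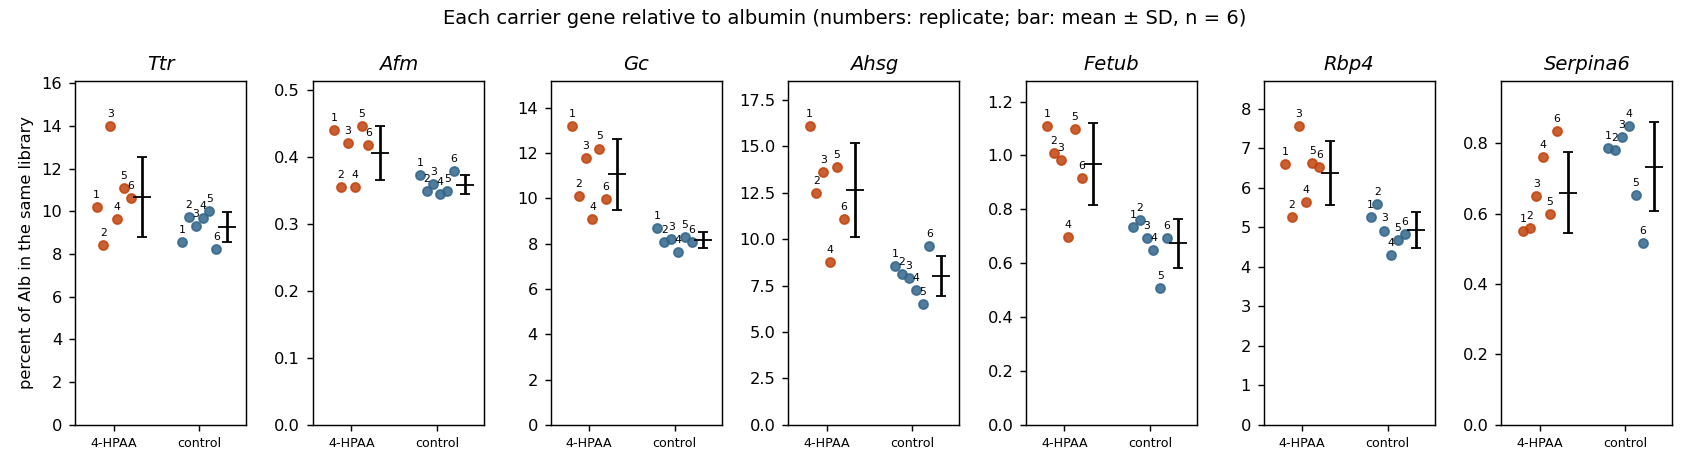
Normalised read count of each of 7 carrier genes as a percentage of albumin in the same library, 4-HPAA left and control right, numbered by replicate, with the mean ± SD (n = 6 each). Gc is the gene whose groups do not overlap, and Serpina6 the gene whose mean is lower in 4-HPAA.

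Levels per length, in counts per kilobase of the principal transcript scaled to a sum of 1000000 over all genes, ordered the carriers within the liver. Albumin had the highest level of any gene, 56577 ± 8668 in 4-HPAA and 74552 ± 3317 in control livers (SD, n = 6 each). Ttr was at 10209 ± 1598 in 4-HPAA and 11857 ± 1212 in control livers, and Ahsg at 9578 ± 756 in 4-HPAA and 8163 ± 993 in control livers. Rbp4 was at 7737 ± 871 in 4-HPAA and 7960 ± 611 in control livers, and Gc at 6951 ± 165 in 4-HPAA and 6862 ± 165 in control livers. Neighbours whose levels differed by less than their spread were Ttr and Ahsg, and Rbp4 and Gc, in 4-HPAA livers, and Ahsg and Rbp4 in control livers. Fetub was at 686 ± 55.4 in 4-HPAA and 639.5 ± 88.1 in control livers, Serpina6 at 479.9 ± 145 in 4-HPAA and 696 ± 140.3 in control livers, and Afm at 227 ± 19.4 in 4-HPAA and 267 ± 9.82 in control livers. In control livers Serpina6 and Fetub differed by less than their spread. The order depends on the transcript length used. With that of the transcript each row names, control levels were 7915 for Rbp4, 5154 for Ttr and 1364 for Serpina6.

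The livers also differed among themselves. 4-HPAA replicate 1 had the lowest value of all 12 livers in Alb, Ttr, Afm and Serpina6 and the highest in Ahsg, and its Serpina6 lay −1.025 from the control mean on the log2 scale. 4-HPAA replicate 4 lay nearest to controls, with its largest distance in Rbp4, at 0.137. Control replicate 5 was the lowest control in Alb, Afm, Gc, Ahsg, Fetub and Rbp4, at −0.567 in Fetub and −0.457 in Ahsg. It also had the most estimated reads, 26929205, and the part of depth was not tested.

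**Figure D5:**
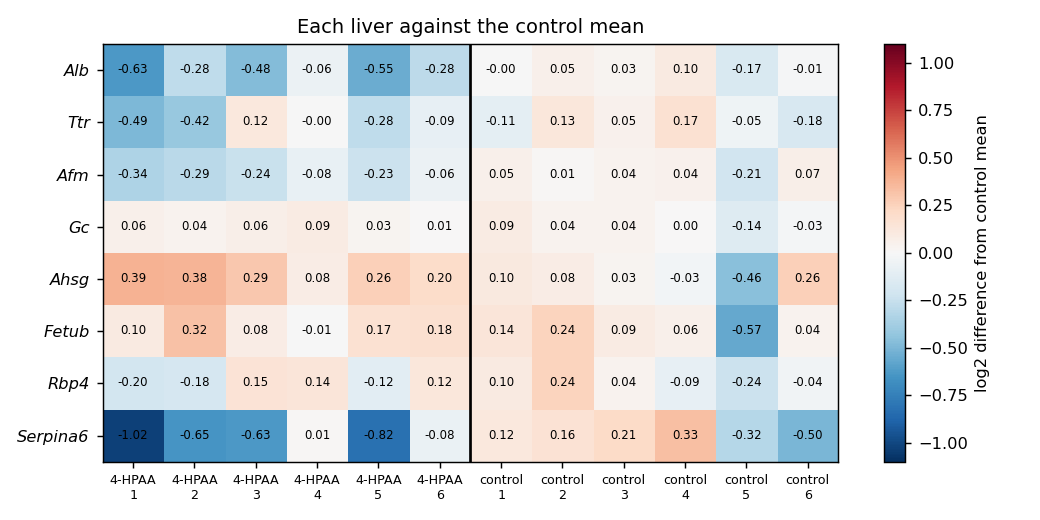
Log2 difference of each liver from the control mean (colour and number) for the 8 carrier genes, 4-HPAA replicates left and controls right. Serpina6 and Alb are lowest in 4-HPAA replicates 1 and 5, 4-HPAA replicate 4 is near 0 throughout, and control replicate 5 is below 0 in all 8 genes.

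The genes most like each carrier over the 12 libraries were taken from 3290 genes with a mean of at least 1000 counts, as a description by Pearson r and Spearman rho. The 12 points share the 2 groups and the libraries. Alb was nearest to 5830473C10Rik (r = 0.96, rho = 0.94), the lipid droplet enzyme gene Hsd17b13 (r = 0.92, rho = 0.90) and Osbpl1a (r = 0.91, rho = 0.77). Serpina6 was nearest to Vnn3 (r = 0.96, rho = 0.94), Acadm, a mitochondrial acyl-CoA dehydrogenase (r = 0.94, rho = 0.87), and Dpys (r = 0.93, rho = 0.85). Ahsg was nearest to Serpina1e, one of several near-identical alpha-1-antitrypsin genes (r = 0.98, rho = 0.91), Kyat1 (r = 0.96, rho = 0.86) and Hsd3b5 (r = 0.95, rho = 0.96). Ttr was nearest to Esd, Echdc3 and Clta, Rbp4 to Apoh, Rarres2 and Sephs2, Afm to Sult1a1, Rdh16f2 and Ces1e, Gc to Serpina1d, Nfkbia and Ip6k1, and Fetub to Serpina1a, Cyp2c23 and Scnn1a. Their r values ran from 0.83 for Gc and Ip6k1 to 0.96 for Ttr and Esd. Rank correlations were lower for some, with rho = 0.32 for Fetub and Scnn1a, 0.51 for Fetub with Serpina1a and with Cyp2c23, and 0.57 for Gc and Ip6k1. Among the carriers, Alb was most like Serpina6 (r = 0.88, rho = 0.91) and Afm (r = 0.88, rho = 0.80).

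Other carriers made by the liver lay mostly on the higher side. Of 24 tested, 19 had positive differences, and 0 passed after adjustment. At an unadjusted p under 0.05 in limma, 12 were higher and 1 was lower. Of all genes, 7.26% were higher and 7.56% lower at that threshold. Ambp, the precursor of the heme-binding alpha-1-microglobulin, was at 0.36 ± 0.08, the chaperone clusterin, Clu, at 0.41 ± 0.10 and Orm1, a drug-binding orosomucoid, at 1.05 ± 0.26 (limma, adjusted p = 0.142, 0.142 and 0.148). Orm1 averaged 26282 ± 9994 counts in 4-HPAA and 12160 ± 2849 in control livers. 4-HPAA replicates 4 and 6 had only 13687 and 15027 Orm1 counts, against 8454 to 14834 in control livers. The lower gene was Serpina7. The iron carrier transferrin, Trf, was at 0.06 ± 0.09 (limma, adjusted p = 0.818). Of 32 tested positive acute phase genes, some of them on the carrier list too, 22 were higher and 0 lower at an unadjusted p under 0.05 in limma, and 0 passed after adjustment. Serpina3k, Itih4 and Fgl1 were at 0.75 ± 0.19, 0.57 ± 0.15 and 1.27 ± 0.34 (limma, adjusted p = 0.142, 0.161 and 0.161). In each of these genes, 4-HPAA replicates 4 and 6 were the lowest of their group. They lay inside the control range in Serpina3k and Fgl1. In Itih4, replicate 4 lay inside it, at 39935 counts, and replicate 6 above it, at 47665. The 8 carriers lay on both sides, with 3 positive and 5 negative differences. Ahsg was at 0.27 ± 0.11, Rbp4 at −0.02 ± 0.10, Ttr at −0.20 ± 0.11 and Alb at −0.38 ± 0.10 (limma, adjusted p = 0.273, 0.956, 0.428 and 0.148). The part of an acute phase shift in the carrier differences was not tested.

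Among transcription factors of the albumin promoter and of hepatocyte identity, Hnf4a was at 0.23 ± 0.13, Zbtb20, a repressor of Afp, at 0.24 ± 0.13 and Nfib at −0.26 ± 0.16 (limma, adjusted p = 0.408, 0.414 and 0.454). None of the genes of the following lists passed after adjustment. Of 19 tested genes of cargo exit from the endoplasmic reticulum, 5 were higher and 0 lower at an unadjusted p under 0.05 in limma. Of all genes, 7.26% were higher and 7.56% lower at that threshold. The coat genes Sec24d, Sec13 and Sec31a were at 0.32 ± 0.11, 0.26 ± 0.09 and 0.20 ± 0.08, and the cargo receptor gene Surf4 at 0.20 ± 0.07 (limma, adjusted p = 0.206, 0.215, 0.276 and 0.239). Of 5 tested genes of albumin recycling and binding, 1 was lower and 0 higher at an unadjusted p under 0.05 in limma. The lower gene was Sparc, which encodes an albumin-binding matrix protein, at −0.47 ± 0.14 (limma, adjusted p = 0.184). Fcgrt, the receptor that rescues albumin from breakdown, and its partner B2m were at −0.14 ± 0.12 and 0.04 ± 0.07, and the endocytic receptor gene Lrp2 at 0.54 ± 0.28 (limma, adjusted p = 0.615, 0.856 and 0.394). Lrp2 averaged only 35.2 counts in 4-HPAA and 22.3 in control livers. Of 6 tested genes of vitamin D handling, 0 were higher and 0 lower at an unadjusted p under 0.05 in limma. Lrp2 came first by p, then Dab2, Actb and Cyp27a1, at −0.16 ± 0.11, 0.09 ± 0.10 and 0.10 ± 0.11 (limma, adjusted p = 0.524, 0.714 and 0.737).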

How the data were processed

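Per the labels' protocols, flash-frozen liver gave RNA for directional TruSeq mRNA libraries on a NovaSeq 6000. The submitters' processing notes list the build GRCm38 and the tools STAR, HTSeq, cutadapt, edgeR, DESeq2 1.28.1 and FastQC 0.11.9. No source used here states their roles or whether counting used strand, and Afm and Ahsg each overlap a gene on the other strand. The deposited values are a score: read counts that the authors scaled by 1 factor per library and rounded, judged from the spacing of low values (factors 0.849 to 1.128). They are not counts, so no count model and no counting intervals were used. Transcript IDs were named with GENCODE M21 (13203 of 13267), and no symbol was on more than 1 row. Each row was read as a whole gene, an assumption that was not tested.

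limma 3.58.1 in R 4.3.3 (trend, robust, no covariate) was fitted to log2(value + 1). Genes needed 10 or more in 6 or more libraries, which left 12720, and p-values were adjusted by Benjamini-Hochberg over all of them. Folds are on that scale. Shares and log2 ratios to Alb were compared by exact two-sided permutation of the 12 libraries. Levels per length were planned with the transcript each row names, but for Alb, Rbp4, Fetub and Serpina6 that is a fragment (331, 410, 798 and 356 bases), so the longest principal transcript was used. Besides the 8 genes, up to 4 genes of smallest p per list and the 3 most alike each carrier are named. Fkbp5, Sgk1, Zbtb16, Tat, Tsc22d3, Per1, Kng2 and Trf were added after their values were seen. The members and lists were chosen with earlier results of these data known. Replicate numbers do not pair the samples (correlations of deviations −0.18 to 0.28). Alternatives were other pseudocounts, filters, scalings and weights, a replicate block, and each library left out. The fit was tested on simulated data. A result on 1 listed transcription factor is not reported here.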

Additional observations from a re-analysis of the deposited data

Results flagged for a closer look

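Control replicate 5 lay far below the other 5 controls in 2 carrier genes, by a gap that exceeded the 95% critical value of Dixon's test for 6 samples. Its Afm value was 6050, with a gap of 0.79 of the range of controls. This holds for the value alone, since its Afm share, 0.0265% against 0.028 to 0.0301% in the other controls, did not exceed the critical value, and this library had the lowest total of all 12, 22869813. Its Fetub value was 8796, with a gap of 0.69, and its Fetub share of the library total was 0.0385%, with a gap of 0.714. Of 46 groups of 6 values checked, these 3 were flagged, and chance flags about 1 in 20.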

How the results depend on the processing

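Under 12 other settings and with each of 12 libraries left out, the log2 differences of Ttr, Afm, Ahsg, Fetub and Serpina6 kept their direction and stayed above an adjusted p of 0.05 in limma. With 1 library left out, Alb ranged from −0.445 to −0.331 and passed without 4-HPAA replicate 4. Gc was −0.012 with the total without Alb, and its share difference was −0.00577 and −0.00907 percentage points without Alb or the 20 highest genes in the denominator. Rbp4 was −0.098 with array weights. With 1 library left out it ranged from −0.063 to 0.032, positive without 4-HPAA replicates 1, 2 or 5 (0.022, 0.017 and 0.005) or control replicates 1 or 2 (0.003 and 0.032). With 1 library left out its share ranged from −0.0204 to 0.000427 percentage points, with 9.22e-05 without 4-HPAA replicate 1. Of all genes, 0 passed the adjusted threshold in limma as reported (7.56% lower and 7.26% higher at an unadjusted p under 0.05), 139 with array weights, 11 with the replicate block and 0 to 193 with 1 library left out, 5 without control replicate 1 and 193 without 4-HPAA replicate 4. Carrier genes past it then numbered 0 to 1, as did carrier genes higher at an unadjusted p under 0.05, and those lower at it 3 to 4. With the replicate block the ratio of Rbp4 to Alb, 0.365, lost its call (exact permutation test within pairs, p = 0.0625), and no other call on a carrier's log2 difference or ratio changed. The block was not run for shares. 5 of 12 libraries correlated best with their own number. With 1 library left out, share differences ranged from −0.132 to −0.0745 percentage points for Ttr and −0.0219 to −0.0153 for Serpina6, and log2 ratios to Alb from 0.104 to 0.251 for Ttr and 0.145 to 0.211 for Afm. The Ttr share passed without 4-HPAA replicate 3 and the Ttr ratio without 4-HPAA replicate 2 (exact permutation test, p = 0.0433 and 0.0173). The causes were not tested. With the length of the transcript each row names, control levels per length became 199268 for Alb, 5154 for Ttr, 116.2 for Afm, 2985 for Gc, 3555 for Ahsg and 1364 for Serpina6. That length was the planned one, and the principal transcript was chosen after seeing the data. Without counts, counting error could not be separated from the spread between livers.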
